A study of Homo sapiens with 6 samples.

Results

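The Notch pathway genes described here were 10 genes fixed by symbol: the receptors NOTCH1, NOTCH2 and NOTCH3, the ligands JAG1, JAG2, DLL1 and DNER, and the target genes HES1, HEY1 and NRARP. All 10 were among the 23228 genes of the count tables, and all 10 passed the filter on low counts, with 12663 genes tested in all. The counts came from RL95-2, an established human endometrial carcinoma line, without any engineered allele. The 3 control libraries came from cells kept for 24 h in equal parts of serum-free RPMI and DMEM, and the 3 ADP-CM libraries from cells in which the DMEM was replaced by DMEM conditioned by human mature adipocytes, at 50% (v/v). Serum was absent in both groups, and a single cell line was used, so the values describe RL95-2 only.

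Notch receptors are single-pass proteins that are read by ligands on the neighbouring cell. Ligand binding leads to successive cuts by ADAM proteases and gamma-secretase, and the freed intracellular domain joins RBPJ and a Mastermind co-activator on DNA. HES1, HEY1 and NRARP are among the genes switched on most directly, HES and HEY proteins being repressors and NRARP a feedback inhibitor of the pathway. In the endometrium the pathway is known for its part in epithelial and stromal differentiation.

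Each library held 16262614 to 18363033 reads on genes, and no pair of replicates matched within sampling noise. The variation between replicate libraries beyond counting noise, as edgeR's common biological coefficient of variation, was 1.67%, so a change of a few percent could be resolved in well-covered genes. Counting noise adds to this spread, most in genes with few reads. Of 8 epithelial markers 7 were tested, of which PAX8 rose and CDH1, KRT8, KRT18 and KRT19 fell, and their summed level went from 4090 to 4162 CPM in control to 3443 to 3486 CPM in ADP-CM. EPCAM, with at least 3278 reads in every library, was not called. ADIPOQ and LEP had 0 reads in all 6 libraries, although FABP4 had 4 to 11 reads and CFD had 154 to 202 reads. The adipocyte markers summed to 10.1 to 10.7 CPM in control and 10.4 to 12.2 CPM in ADP-CM. Most of that sum was CFD, with means of 9.46 CPM in control and 10.4 CPM in ADP-CM, which was not called. Of the endothelial markers KDR was at 0 and PECAM1 had at most 1 read, although CDH5 had 985 to 1127 reads. The 5 endothelial markers summed to 60.9 to 67.1 CPM in control and 54.6 to 62.2 CPM in ADP-CM. Of the mural cell markers DES was at 0 and MYH11 had at most 1 read, although ACTA2 had 52 to 80 reads and RGS5 had 31 to 59. ACTA2 and RGS5 were not called, and the sum of the 5 mural markers was 6.29 to 6.96 CPM in control and 5.56 to 6.79 CPM in ADP-CM. Of the leukocyte markers PTPRC had at most 1 read while CD68 rose, and the sum of 6 went from 7.08 to 8.53 CPM to 9.98 to 12.2 CPM. Of the 6 stromal markers COL1A1 rose, 3 had at most 3 reads in every library, and the sum went from 61.1 to 68.3 CPM to 78.0 to 78.9 CPM. The part of these markers in the Notch results was not tested, and fewer cells of a kind cannot be told apart from less RNA per cell.

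NOTCH3 was the member with the largest change, with RNA in ADP-CM at 0.558 of its control level. NOTCH2, the most abundant receptor by RNA, rose slightly, and NOTCH1 was not called. JAG2 and DNER fell among the ligands, HES1 and NRARP fell among the targets, and JAG1, DLL1 and HEY1 were not called. Changes are given as log2FC, the log2 fold change of ADP-CM over control, and FDR is the p-value of edgeR's quasi-likelihood test after Benjamini-Hochberg adjustment over all 12663 genes. At an FDR under 0.01, 6 of the 10 members were called, where 26.5% of all tested genes were. Of these, 1 was higher (13.5% of all genes) and 5 were lower (13.0% of all genes) in ADP-CM. NOTCH3 and DNER, both lower, also passed a 1.5-fold change, where 2.27% of all tested genes were called at both limits and 1.14% were called lower. For 7 of the 10 members the groups stood apart without overlap, 1 higher and 6 lower, where 45.5% of all tested genes did so, 22.7% higher and 22.8% lower. The median log2FC was -0.10 over the members and -0.0023 over all tested genes.

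**Figure D1:**
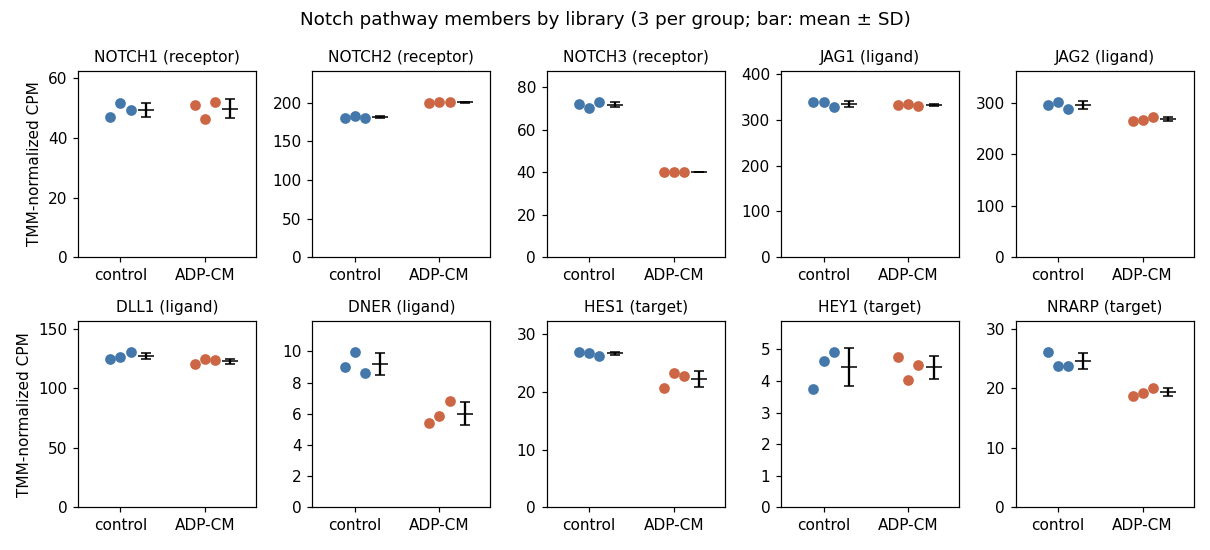
Level of each of the 10 genes in each library as TMM-normalized CPM on a linear axis from 0 (points: 3 control and 3 ADP-CM libraries; bar: mean ± SD). The ADP-CM points of NOTCH3 lie at 40.1 to 40.3 CPM against 70.5 to 73.2 in control, while those of NOTCH1, JAG1 and HEY1 overlap the control points.

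The receptors diverged. NOTCH3 (chromosome 19, 15269849 to 15311806) had 1168, 1191 and 1252 reads in the 3 controls, against 726, 735 and 741 with ADP-CM. Every ADP-CM library was thus below every control library although the ADP-CM libraries were the deeper ones. Scaled to library size, NOTCH3 fell from 71.9 ± 1.34 to 40.2 ± 0.114 CPM (SD, n = 3 each), log2FC -0.84 ± 0.043 (SE). With an FDR of 7.08e-26 (edgeR) it stood at rank 29 of the 12663 genes. NOTCH3 is known as a receptor whose own gene can be activated by Notch signaling, and it has a shorter transactivation region than NOTCH1.

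NOTCH2 (chromosome 1, 120454176 to 120643366), the receptor whose RNA was highest both per read and per length, had 2924, 3078 and 3074 reads in the 3 controls, against 3604, 3683 and 3696 with ADP-CM. After scaling, controls lay at 180.2, 182 and 179.8 CPM and ADP-CM at 199, 200.8 and 200.9 CPM, with no overlap. NOTCH2 rose with log2FC 0.15 ± 0.026 (SE) at an FDR of 5.40e-06 (edgeR), a 1.11-fold change that stayed below the 1.5-fold limit. Reads that match both NOTCH2 and its partial copy NOTCH2NL are left out by unique alignment, so NOTCH2 may be undercounted. NOTCH2NL itself had 198 to 258 reads and log2FC 0.10, which was not called (edgeR, FDR 0.371).

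NOTCH1 (chromosome 9, 139388885 to 139440500), the best studied receptor of the family, had 761, 871 and 845 reads in the controls, against 926, 850 and 959 with ADP-CM. Its scaled levels of 46.9, 51.6 and 49.4 CPM without ADP-CM and 51.1, 46.4 and 52.1 CPM with it overlapped. The log2FC was 0.02, with a 95% interval from -0.08 to 0.11, so a change beyond that interval was not seen and a smaller one would not have been detectable here. The fourth receptor, NOTCH4, had 7, 3 and 4 reads in the controls, against 4, 2 and 1 with ADP-CM, and was too low to test.

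Because the receptors moved apart, the make-up of receptor RNA differed between the groups. Levels per length were taken as CPM per kilobase of annotated exons, since counts alone favour long genes. Of the summed NOTCH1, NOTCH2 and NOTCH3 level per length, NOTCH3 took 34.5%, 33.3% and 34.6% in the controls, against 21.1%, 21.4% and 20.9% with ADP-CM. NOTCH2 went from 48.3% ± 0.405 to 59.2% ± 0.798 and NOTCH1 from 17.6% ± 0.702 to 19.7% ± 1.00 (SD, n = 3 each). The ratio of NOTCH2 to NOTCH3 per length was 1.41, 1.45 and 1.38 in control and 2.79, 2.82 and 2.80 in ADP-CM. The summed receptor level went from 22.4 ± 0.186 to 20.2 ± 0.246 CPM per kilobase (SD, n = 3 each). On raw reads, with no length correction, the difference in the NOTCH1 share was 0.853 points in place of 2.11. There, and also with the longest transcript as the length, the groups overlapped in the NOTCH1 share. The groups did not overlap in any of the above quantities per exon length. Each gave p = 0.1 in a two-sided exact permutation test, the smallest p that 3 libraries against 3 can give, so the design could not reach 0.05. For the 3 receptor shares the adjusted value over the 7 shares tested was 0.117 (exact permutation test).

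**Figure D2:**
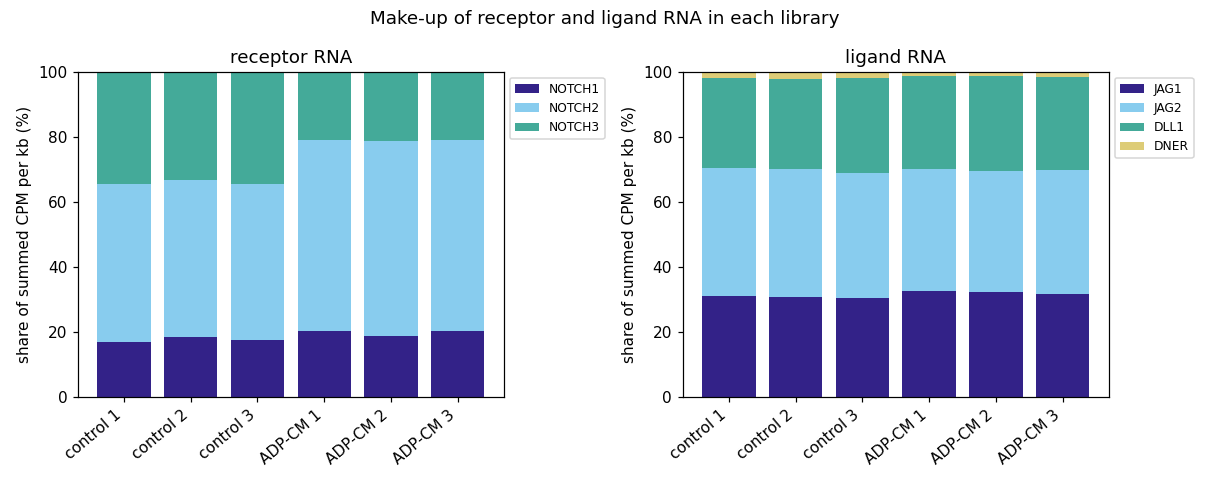
Share of each receptor (left) and each ligand (right) in the summed CPM per kilobase of its role, in percent, with 1 stacked bar per library. NOTCH3 narrows from 33.3% to 34.6% of receptor RNA in control to 20.9% to 21.4% in ADP-CM, whereas the 4 ligand shares move by less than 2 points each.

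JAG2 (chromosome 14, 105607319 to 105635161), a canonical ligand of the Jagged type, had 4814, 5099 and 4911 reads in the controls, against 4799, 4889 and 5003 with ADP-CM. The raw reads overlapped, but relative to library size controls stood at 297, 302 and 287 CPM and ADP-CM at 265, 267 and 272 CPM. JAG2 fell, with log2FC -0.14 ± 0.024 (SE) at an FDR of 2.42e-06 (edgeR). Of its exonic bases in the annotation used for lengths, 7.33% are shared with another gene on the same strand. Reads there would be lost as ambiguous only if the annotation used for counting also held that gene, which was not checked. The other Jagged ligand, JAG1 (chromosome 20, 10618332 to 10654647), had 5495, 5737 and 5609 reads in the controls, against 6035, 6158 and 6097 with ADP-CM, which is 335 ± 6.50 and 334 ± 2.17 CPM (SD, n = 3 each). Its groups overlapped, and its log2FC of -0.0082 had a 95% interval from -0.05 to 0.04.

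DLL1 (chromosome 6, 170591294 to 170615653), a Delta-like ligand, stood at 125, 126 and 131 CPM without ADP-CM and at 120.4, 125 and 124 CPM with it. All 3 ADP-CM libraries were lower than all 3 control libraries by a narrow margin, but DLL1 was not called, with log2FC -0.05, a 95% interval from -0.11 to 0.01 and an FDR of 0.186 (edgeR). Exons of FAM120B on the other strand cover 9.69% of its exonic bases, and the strand setting of the counting is not given in the sources used here. DNER (chromosome 2, 230222345 to 230579271), a non-canonical ligand best known from neurons, was the lowest of the 4 ligands. It had 146, 168 and 147 reads in the controls, against 98, 107 and 125 with ADP-CM, without overlap. DNER fell from 9.18 ± 0.695 to 6.01 ± 0.709 CPM (SD, n = 3 each), log2FC -0.61 ± 0.11 (SE; edgeR, FDR 1.41e-05). Its log2FC was -0.55 without control replicate 2 and -0.54 without ADP-CM replicate 1, where DNER kept its call but not the 1.5-fold limit. DNER, like the other members, was chosen with earlier results of these data known, so its direction is not independent evidence.

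Of the summed ligand level per length, JAG1 went from 30.6% ± 0.322 to 32.2% ± 0.393, JAG2 from 39.1% ± 0.547 to 37.6% ± 0.318, DLL1 from 28.3% ± 0.914 to 28.9% ± 0.270 and DNER from 1.98% ± 0.126 to 1.37% ± 0.151 (SD, n = 3 each). The groups did not overlap for JAG1, JAG2 and DNER, each with p = 0.1 in a two-sided exact permutation test, and overlapped for DLL1, with p = 0.4 in the same exact test (adjusted values over 7 shares 0.117 and 0.4). The difference in the DLL1 share, 0.576 points, was 0.329, 0.296 and 1.10 without control replicates 1, 2 and 3. The summed ligand level went from 118 ± 1.41 to 111 ± 1.09 CPM per kilobase (SD, n = 3 each), also without overlap (exact permutation test, p = 0.1).

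The target genes HES1 and NRARP both fell, whereas HEY1 was not called. NRARP (chromosome 9, 140194083 to 140196723) had 423, 401 and 406 reads in the controls, against 340, 351 and 369 with ADP-CM. Each ADP-CM library was below each control library, and NRARP fell from 24.5 ± 1.34 to 19.3 ± 0.661 CPM (SD, n = 3 each), log2FC -0.34 ± 0.065 (SE; edgeR, FDR 1.79e-05). HES1 (chromosome 3, 193853937 to 193856521), the basic helix-loop-helix repressor that is the textbook readout of Notch activity, had 437, 453 and 450 reads in the controls, against 376, 427 and 420 with ADP-CM. It stood at 26.9, 26.8 and 26.3 CPM without ADP-CM and at 20.8, 23.3 and 22.8 CPM with it, where replicate 1 was the lowest. HES1 fell, with log2FC -0.26 ± 0.062 (SE) at an FDR of 0.000534 (edgeR). The HES1 call was lost without ADP-CM replicate 1, at log2FC -0.21 and an FDR of 0.0129 (edgeR), and with DESeq2, at -0.26 and 0.0154. Over all alternatives its adjusted p ran from 0.000371 to 0.0154 (edgeR or DESeq2).

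HEY1 (chromosome 8, 80674606 to 80680092), a related repressor, was the member with the fewest reads, 61, 78 and 84 in the controls, against 86, 74 and 83 with ADP-CM. Its groups overlapped at 4.43 ± 0.599 and 4.43 ± 0.364 CPM (SD, n = 3 each), and the 95% interval of its log2FC ran from -0.30 to 0.29. A fall of the size seen in HES1 lies within that interval, so it was not detectable in HEY1 at this depth.

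**Figure D3:**
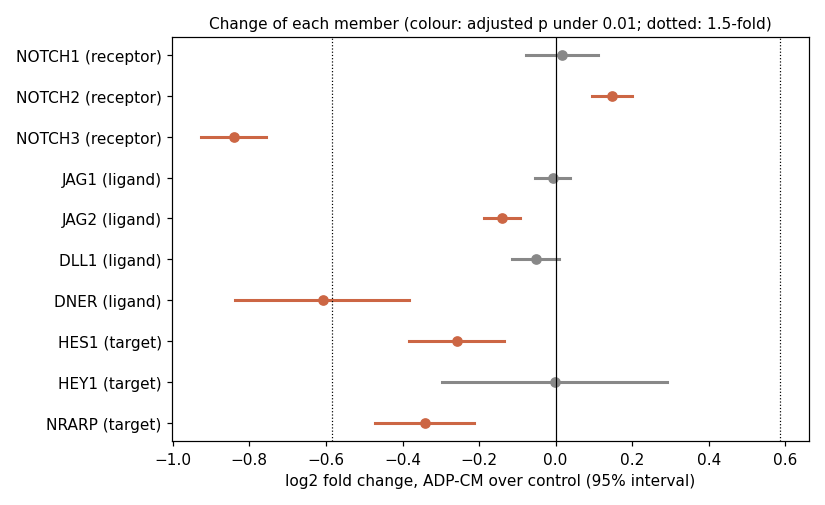
Log2FC of each member, ADP-CM over control (point), with its 95% interval (line), from the edgeR fit of 3 against 3 libraries. Coloured members had an FDR under 0.01, dotted lines mark a 1.5-fold change, and the interval of HEY1 (-0.30 to 0.29) is the widest among the members that were not called.

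Of the members that fell, HES1, NRARP and NOTCH3 are known from other tissues to respond to the pathway, and their upstream sequences are shown because the Notch complex acts through RBPJ bound to DNA. They are the 250 bases before the RefSeq start of each gene on GRCh38.p14, written 5′ to 3′ on the strand of the gene, and capitals mark the RBPJ core TGGGAA, searched on both strands.
HES1, chr3:194135898-194136147, plus strand: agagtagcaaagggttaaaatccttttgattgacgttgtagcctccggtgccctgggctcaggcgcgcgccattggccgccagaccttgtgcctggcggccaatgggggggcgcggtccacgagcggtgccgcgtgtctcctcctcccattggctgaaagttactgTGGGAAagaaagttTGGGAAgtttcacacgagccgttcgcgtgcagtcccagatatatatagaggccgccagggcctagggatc
NRARP, chr9:137302272-137302521, minus strand: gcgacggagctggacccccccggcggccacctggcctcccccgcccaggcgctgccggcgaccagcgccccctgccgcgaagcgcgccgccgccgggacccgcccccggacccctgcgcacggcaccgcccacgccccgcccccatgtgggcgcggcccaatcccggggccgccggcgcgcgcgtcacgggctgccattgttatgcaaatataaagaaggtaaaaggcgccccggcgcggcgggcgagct
NOTCH3, chr19:15200996-15201245, minus strand: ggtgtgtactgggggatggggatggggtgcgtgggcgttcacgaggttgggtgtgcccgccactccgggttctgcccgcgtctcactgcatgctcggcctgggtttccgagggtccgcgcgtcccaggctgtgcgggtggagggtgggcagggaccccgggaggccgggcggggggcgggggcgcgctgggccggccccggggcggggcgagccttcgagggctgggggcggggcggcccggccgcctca

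HES1 held 2 matches to TGGGAA, whose first bases lie at -84 and -70 from the gene start. Of the 7 members with a promoter sequence used here it alone held any, where 20.8% of 35116 promoters of the same length hold at least 1. DLL1 and DNER had no sequence available, and HEY1 was left out because it lies on chromosome 8. The target gene HEY1 was therefore not searched. The N box CACNAG, to which HES proteins bind, was found in 2 of the 7 members (32.0% of all promoters), with 3 matches in HES1, 1 in NOTCH3 and no base shared with a TGGGAA match. The STAT site TTCNNNGAA was found in 0 of the 7 (6.57% of all promoters). Both strands were searched for each motif. A match is a run of letters and not a measured site, and the lack of one says only that these letters are not in this window.

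Ranked by level per length in the control libraries, JAG2 (46.2 ± 1.17 CPM per kilobase), JAG1 (36.1 ± 0.699) and DLL1 (33.3 ± 0.755) came first, followed by HES1 (13.0 ± 0.161), NOTCH2 (10.8 ± 0.0800), NRARP (9.28 ± 0.509), NOTCH3 (7.64 ± 0.143), NOTCH1 (3.93 ± 0.187), DNER (2.34 ± 0.177) and HEY1 (0.807 ± 0.109) (SD, n = 3 each). No neighbours in this order overlapped in control. In ADP-CM, NOTCH2 at 11.96 ± 0.0629 CPM per kilobase stood above HES1 at 10.8 ± 0.652, and NOTCH3 at 4.27 ± 0.0121 had come close to NOTCH1 at 3.98 ± 0.247 (SD, n = 3 each). With the longest transcript as the length, JAG1 ranked above JAG2 in control, at 56.5 ± 1.09 and 51.2 ± 1.30 CPM per kilobase, and NOTCH1 above NOTCH3 in ADP-CM, at 5.06 ± 0.314 and 4.63 ± 0.0131 (SD, n = 3 each), so these orders depend on the annotation.

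The other genes of the pathway were taken from a list of 73, of which 62 were tested. Of these 9 rose and 9 fell, which is 29.0% against 26.5% of all tested genes and so close to the background. Their median log2FC was 0.04, against -0.0023 over all tested genes. Past a 1.5-fold change, LFNG was lower and L3MBTL3 higher, where 1.14% of all tested genes were called in each direction at both limits.

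Of the genes that add sugars to the receptors 2 of 5 fell. LFNG, the Fringe enzyme that lengthens the O-fucose on Notch and thereby shifts which ligands it answers, stood at 44.5, 43.9 and 45.3 CPM in control and 25.9, 26.8 and 27.6 CPM in ADP-CM, without overlap. It fell with log2FC -0.73 ± 0.052 (SE; edgeR, FDR 9.73e-19), the smallest p-value on the list. POFUT1, which attaches that fucose, fell from 167 ± 4.32 to 153 ± 1.34 CPM (SD, n = 3 each), log2FC -0.13. The remaining Fringe genes MFNG and RFNG had log2FC of 0.41 and 0.17 and were not called.

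Of the 9 genes for cleavage of the receptors, FURIN rose and NCSTN and APH1A fell (33.3% called, against 26.5% of all tested genes). FURIN, which makes the first cut in the Golgi, had log2FC 0.30, and NCSTN, the nicastrin subunit of gamma-secretase, had log2FC -0.26. APH1A, another subunit, is named outside the rule for named genes, and its log2FC of -0.09 lost the call in 6 of 13 alternatives. ADAM10 and ADAM17, the proteases of the second cut, were not called, with log2FC of -0.06 and 0.06. Of the 11 tested genes for ubiquitination and trafficking 1 (9.09%) was called at an FDR under 0.01 (edgeR), against 26.5% of all tested genes. NEURL1B, a ubiquitin ligase that acts on Notch ligands, fell from 31.4 ± 1.21 to 22.3 ± 1.07 CPM (SD, n = 3 each), log2FC -0.49. MIB1, the main ligase of the ligands, had log2FC 0.10 and was not called.

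In the nucleus RBPJ, the DNA-binding partner of all Notch receptors, was not called, with 49.6 ± 0.563 and 48.0 ± 1.48 CPM without and with ADP-CM (SD, n = 3 each). Of the 8 tested genes of its complex and co-activators KAT2A and MAML2 rose, with log2FC of 0.18 and 0.30 (25.0% called, against 26.5% of all tested genes). The MAML2 call was lost with DESeq2 and without control replicate 3, with an adjusted p of 0.0166 (DESeq2) and 0.0105 (edgeR). Of the 14 co-repressors 3 (21.4%) were called at an FDR under 0.01 (edgeR), all higher. This share lies below the 26.5% of all tested genes called in either direction, but above the 13.5% called higher. L3MBTL3, which binds RBPJ and represses its targets, had 51, 68 and 65 reads in the controls, against 91, 117 and 106 with ADP-CM, log2FC 0.64 ± 0.15 (SE). CTBP2 and SPEN, both parts of RBPJ co-repressor complexes, had log2FC of 0.17 and 0.14.

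Of the other HES and HEY genes 5 of 9 were tested. HES6, which can oppose HES1, rose from 23.1 ± 0.345 to 31.1 ± 1.59 CPM, and HES2 fell from 24.3 ± 0.536 to 17.2 ± 1.94 CPM (SD, n = 3 each). HES4 was not called, with log2FC 0.07, and HEYL had 28, 42 and 28 reads in the controls, against 21, 29 and 22 with ADP-CM, and missed the threshold (edgeR, FDR 0.0561). HES3 and HES7 had 0 reads in every library, which allows up to 3 reads, or 0.163 to 0.185 CPM, for counting error only. Among 6 further genes known as Notch targets in several tissues, the proto-oncogene MYC rose from 258 ± 0.502 to 322 ± 6.11 CPM and the transcription factor SOX9 from 68.0 ± 2.96 to 80.7 ± 2.18 CPM, while the cell cycle inhibitor CDKN1A fell from 46.3 ± 1.46 to 35.5 ± 2.30 CPM (SD, n = 3 each). CCND1 and CCND3, named outside the rule, fell by 0.07 and 0.15 on the log2 scale, and each lost its call in 4 of 13 alternatives. Of these 6 further genes 5 (83.3%) were called, against 26.5% of all tested genes, on a list chosen with earlier results known. MYC, SOX9, CDKN1A and the cyclins also answer to many signals other than Notch. Of the ligands outside the 10 members, DLL3 had 163 to 219 reads and was not called (edgeR, FDR 0.235), and DLL4 had 8, 8 and 12 reads in the controls, against 4, 9 and 9 with ADP-CM, and was too low to test.

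**Figure D4:**
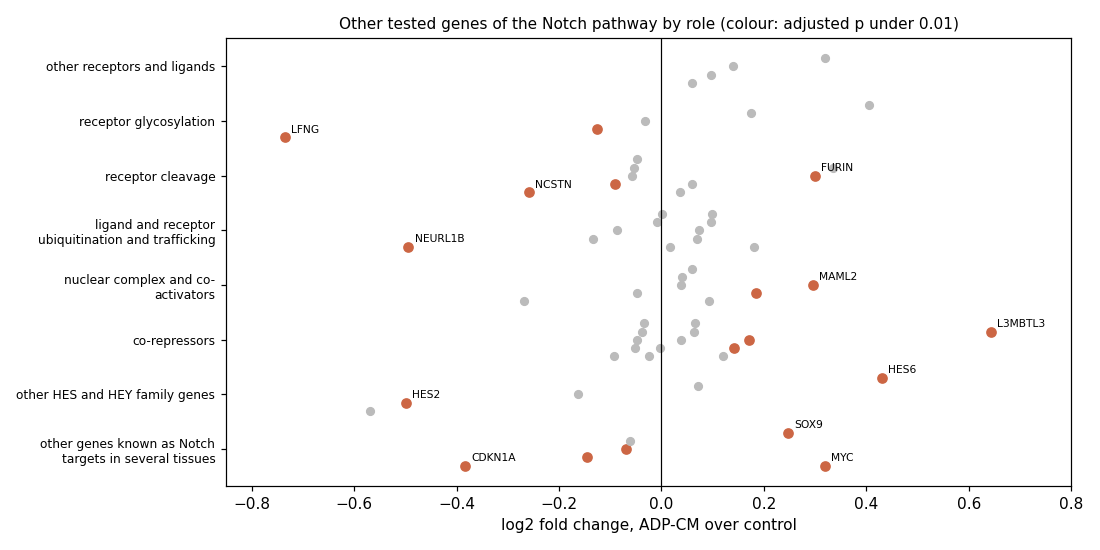
Log2FC (ADP-CM over control) of the 62 tested pathway genes outside the 10 members, grouped by role, with 1 point per gene (colour: FDR under 0.01 by edgeR; grey: not called; vertical offsets only separate the points). LFNG at -0.73 and L3MBTL3 at 0.64 lie farthest out among the called genes.

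Of the 12137 tested genes with a mean of at least 1 CPM, those whose profile over the 6 libraries lay closest to that of NOTCH3, by root-mean-square distance of the centred log2 CPM, were KRT19, IVL and SMAD6, at distances of 0.024, 0.037 and 0.039. KRT19 is a keratin of simple epithelia, IVL encodes involucrin of the cornified envelope and SMAD6 is an inhibitor of BMP signaling, and their log2FC values were -0.85, -0.84 and -0.85. Closest to NOTCH2 were RSL1D1, HSPH1 and MSL1, at distances of 0.0069, 0.0094 and 0.0097. With 2 groups of 3 libraries such likeness mostly reflects an equal step between the groups and is given as a description.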

How the data were processed

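RNA of RL95-2 cells was sequenced in 3 control and 3 ADP-CM libraries. The authors aligned 50 base single reads to hg19 with TopHat2, counted them per NCBI RefSeq gene with HTSeq and deposited raw counts without normalization. The versions and the strand setting of the counting are not given in the sources used here. Reads without a unique alignment, on no gene or ambiguous (31.4% to 33.0% of each library) stayed out of library sizes and tests. In R 4.3.3 with edgeR 4.0.16, genes were kept by filterByExpr (12663 of 23228), scaled by TMM and compared by quasi-likelihood, with p-values adjusted after Benjamini-Hochberg over all genes tested (FDR). CPM values are TMM-normalized. Calls needed an FDR under 0.01, and the study's limit of a 1.5-fold change is given as a second count. Intervals at 95% rest on the standard error of that fit. Alternatives were DESeq2 1.42.0, other scalings, filters and thresholds, a robust fit, the replicate number as a term and each library left out. Positions and exon lengths came from GENCODE release 44 on GRCh37, the same assembly as hg19, and promoter sequences from RefSeq on GRCh38.p14. The test was tried on simulated data first.

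Named genes were all members, up to 15 called genes of the pathway list by smallest p plus those past 1.5-fold, NOTCH4, DLL3 and DLL4, and the 3 genes with the profile closest to the raised and to the lowered member of smallest p. Cell type markers, the other uncalled or untested pathway genes, and APH1A, CCND1 and CCND3 were named outside this rule. The members and lists were chosen with earlier results of these data known. The labels do not say whether replicates were separate cultures or conditioned media. The p-values therefore weigh the difference between groups against the spread between these libraries, which may be technical.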

Additional observations from a re-analysis of the deposited data

Results flagged for a closer look

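Both flagged values lie in the counting summaries, which no comparison of genes uses. The share of reads on no gene was 11.5% in ADP-CM (11.51% to 11.57%) against 10.3% in control (10.20% to 10.31%), and the share of reads without a unique alignment was 20.7% in ADP-CM against 20.5% in control (means of 3 libraries). The groups did not overlap for either share. The part of these shares in the results on the Notch genes was not tested. Single libraries of the members were not screened as outliers, since groups of 3 are too small for that.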

How the results depend on the processing

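Of 130 log2 fold changes of the 10 members under 13 alternatives, 120 kept their direction and their side of the threshold, 2 kept direction but lost the call, both for HES1, and 8 changed sign, none of them in a called member. The sign changes were those of NOTCH1 (-0.018 to 0.065 with single libraries left out), JAG1 (-0.024 to 0.00034) and HEY1 (-0.11 to 0.079, and 0.00050 with library size only), all with intervals across 0. Adding the 1.5-fold limit left 0 members raised and 2 lowered, and 1 pathway gene in each direction, where 2.27% of all tested genes were called. At an FDR under 0.05, 16 pathway genes were raised and 13 lowered, where 36.7% of all tested genes were called (2326 higher and 2319 lower). With single libraries left out, 1 member was raised and 4 to 5 were lowered, and 8 to 11 pathway genes were raised and 6 to 9 lowered. In those fits 20.6% to 25.1% of all tested genes were called. L3MBTL3 fell short of 1.5-fold in 2 of 13 alternatives. DESeq2 called 1983 of 12013 genes (16.5%) where edgeR called 3357 of 12663 (26.5%), and the cause was not tested. In the DESeq2 fit 1 member was raised and 4 were lowered, and 8 pathway genes were raised and 6 lowered. With the replicate number as a block, 1 member was raised and 5 were lowered, and 10 and 9 pathway genes were raised and lowered. In that fit 3502 genes (27.7%) were called in all. Same-numbered libraries deviated together only weakly (correlations of 0.06, 0.03 and 0.09), so the numbers were not taken as pairs, although each library correlated best with its own number. The shares of receptor and ligand RNA kept their direction under both other lengths and with each library left out, but not always their size. In the NOTCH1 share the groups overlapped under both other lengths. On raw reads the difference in share was 0.853 points for NOTCH1 (2.11 per exon length), 0.217 for DLL1 (0.576) and -0.373 for DNER (-0.607), and for DLL1 it was 0.356 with the longest transcript and 0.296 to 1.10 with single libraries left out. Depth limits HEY1 and DNER most, at 61 to 86 and 98 to 168 reads per library.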
